A study of Mus musculus with 2 samples.

Results

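The genes described here are 10 imprinted genes of growth control, taken by symbol from the 32285 genes of the deposited count matrix: Igf2, Dlk1, Grb10, Cdkn1c, Plagl1, Peg3, Ndn, Mest, H19 and Meg3. Each had 1 row in the matrix. They were read across fibroblast-like cells, the connective tissue cells of the cultures, and across macrophage-like and mast cell-like cells. The fibroblast-like cells were further split by UMIs of C7 (a complement component), Crabp1 (a retinoic acid binding protein) and Adipoq (adiponectin, a hormone of fat cells). A UMI, or unique molecular identifier, marks 1 captured RNA molecule.

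The study looked for progenitors with macrophage and endothelial potential in postnatal mouse aorta. Per the labels, the aortas came from 2 C57BL/6J males, 12 weeks of age, and were stripped of surrounding fat and digested. Their cells formed colonies over 14 days in methylcellulose, a semi-solid medium. Macrophage colonies (CFU-M, colony-forming unit macrophage) were taken apart, and live cells were sorted with the dye DAPI and run as 1 droplet library with the 10x 3′ v3.1 kit. By the labels, all cells compared below share this strain, tissue, culture and library, and no treatment or genotype separates them. The labels do not say which cell came from which mouse or colony.

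An imprinted gene is expressed mainly or only from the allele inherited from 1 parent, through DNA methylation set in the germ line. Many such genes act on growth in the embryo: as a rule paternally expressed members such as Igf2, Dlk1, Peg3 and Mest promote or permit it, and maternally expressed ones such as H19, Cdkn1c and Grb10 restrain it. Many are turned down in tissues after birth and are known to persist in some stromal and progenitor cells. The counts used here do not tell the alleles apart, so nothing below bears on which parental copy was read.

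On GRCm38 with GENCODE vM21, 5 members lie on chromosome 7: Peg3 (6703892 to 6730431, minus strand), Ndn (62346569 to 62350262, plus), H19 (142575529 to 142578143, minus), Igf2 (142650766 to 142666816, minus) and Cdkn1c (143458339 to 143461050, minus). Dlk1 (109452823 to 109463336) and Meg3 (109541001 to 109571726) are neighbours on the plus strand of chromosome 12. Plagl1 is at 13060504 to 13131694 on the plus strand of chromosome 10, Grb10 at 11930508 to 12038683 on the minus strand of chromosome 11 and Mest at 30723547 to 30748465 on the plus strand of chromosome 6. H19 and Meg3 are annotated as lincRNA, and the other 8 as protein-coding. Igf2, Cdkn1c, Ndn and Mest overlap genes on the opposite strand that are also rows of the matrix: Igf2os for Igf2, Gm44732 for Cdkn1c, Gm32061 for Ndn, and Copg2 and Gm44296 for Mest. Whether counting used the strand is not given in the sources used here, so reads of these pairs may not be fully separated.

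RefSeq promoter sequences (build GRCm38.p6) were matched for 8 of the 10 members. Those of Dlk1, Meg3 and Grb10 are shown because Dlk1 and Meg3 are neighbours whose levels are compared below, and because Grb10 was the member whose level differed least between groups of fibroblast-like cells. Each is the 250 bases before the start site, 5′ to 3′ on the gene's own strand, with CpG dinucleotides, the sites that imprinting methylates, in capitals. Where RefSeq gives several starts, the one with the most CpG is printed.
Dlk1, chr12:109452573-109452822, plus strand: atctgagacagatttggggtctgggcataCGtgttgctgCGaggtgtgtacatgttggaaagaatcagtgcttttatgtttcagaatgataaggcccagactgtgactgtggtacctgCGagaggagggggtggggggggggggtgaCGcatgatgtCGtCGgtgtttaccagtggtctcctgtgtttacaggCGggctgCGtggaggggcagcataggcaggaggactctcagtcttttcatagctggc
Meg3, chr12:109540746-109540995, plus strand: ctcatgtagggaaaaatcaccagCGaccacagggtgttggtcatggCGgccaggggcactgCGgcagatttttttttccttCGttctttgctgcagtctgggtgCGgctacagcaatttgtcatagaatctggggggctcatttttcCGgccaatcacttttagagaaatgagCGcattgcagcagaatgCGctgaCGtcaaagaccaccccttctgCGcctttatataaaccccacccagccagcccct
Grb10, chr11:12037421-12037670, minus strand: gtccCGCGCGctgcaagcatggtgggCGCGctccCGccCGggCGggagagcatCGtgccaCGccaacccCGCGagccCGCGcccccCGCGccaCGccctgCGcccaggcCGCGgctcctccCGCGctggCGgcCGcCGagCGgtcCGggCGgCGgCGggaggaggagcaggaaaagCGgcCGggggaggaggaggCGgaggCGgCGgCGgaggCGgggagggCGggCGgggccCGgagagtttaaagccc

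The Grb10 stretch held 40 CpG, and 1.31% of all 32851 promoters in the table held as many or more. The Dlk1 and Meg3 stretches held 8 and 10, against a median of 6 over all promoters. The printed Grb10 and Meg3 starts were picked for the most CpG, and the promoters they are set against were not. The other start of Grb10 held 8, as many as 43.0% of promoters or more held, and that of Meg3 held 0. Meg3 carried TATAAA on both strands as 1 overlapping pair of matches just before its start, and 12.4% of all promoters carry that motif on either strand. It also carried 1 CCAAT, which 33.9% of promoters carry. The Dlk1 and Grb10 stretches held neither motif. The other members' starts ranged from 1 CpG (1 of 4 starts of Igf2) to 22 (another start of Igf2), with 19 for Plagl1, 5 for Ndn and 8 for Peg3. These are counts of letters in the reference, and methylation was not measured.

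The library held 593248944 gene UMIs in 34813 barcodes, and 29288 cells remained after filters and removal of called doublets, with 1001 to 243243 UMIs each. Clusters, made without the members and the other listed genes, gave 5109 fibroblast-like cells with a median of 31009 UMIs, 2531 macrophage-like cells with 8435 and 13655 mast cell-like cells with 11288. Fibroblast-like cells carried all 6 fibroblast markers (82.7 to 4718 UMIs per 1000000 gene UMIs, CPM). They also carried all 7 mast cell markers, at 84.1 to 2908 CPM and 7943 CPM summed, against 18563 in macrophage-like and 60457 in mast cell-like cells, so RNA of the most common class was found in both others. Their macrophage markers summed to 104.6 CPM and their endothelial markers to 24.7. Against the label of male mice, 65.4% of the fibroblast-like cells with enough depth had Xist UMIs and no UMI of 4 Y-linked genes, 15.3% had Y-linked UMIs and no Xist, and 7.52% had both. The matrix also held counts of 3 cell tags named Matrigel, Cafum and Macrophages, whose meaning the labels do not give. Of the fibroblast-like cells 49.1% carried the Matrigel tag alone, 22.9% more than 1 tag, 21.0% none, 6.13% the Cafum tag alone and 0.842% the Macrophages tag alone.

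With 1 library and no replicate, no test between cell classes was possible and no p-value is given. CPM is the sum of a gene's UMIs over the cells of a class per 1000000 gene UMIs of those cells. Intervals are exact Poisson for CPM, exact conditional for ratios and Clopper-Pearson for shares of cells, all at 95%, and cover counting error only. UMIs were counted at the 3′ end, and no level is compared between genes. A member was counted in a comparison where both groups together held at least 30 of its UMIs, and called at a 2-fold difference.

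Across the 3 classes, 8 of the 10 members were read mainly in fibroblast-like cells, and the other 2, Igf2 and Mest, were below 1 CPM in all 3 classes. Of the 9 members with enough UMIs, 8 were at least 2-fold higher in fibroblast-like than in mast cell-like cells, where 33.3% of all 18902 genes counted were. The same 8 of 9 were higher than in macrophage-like cells, where 29.1% of 18236 genes were. The median ratio of the 9 was 43.5 over mast cell-like and 43.6 over macrophage-like cells, against 1.14 and 1.19 for all genes counted. The members were chosen with earlier results of these data known, so these counts and ratios are descriptions. Mest, which encodes an enzyme of the alpha/beta hydrolase family, was counted and not called in either comparison, and Igf2 was not counted.

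**Figure D1:**
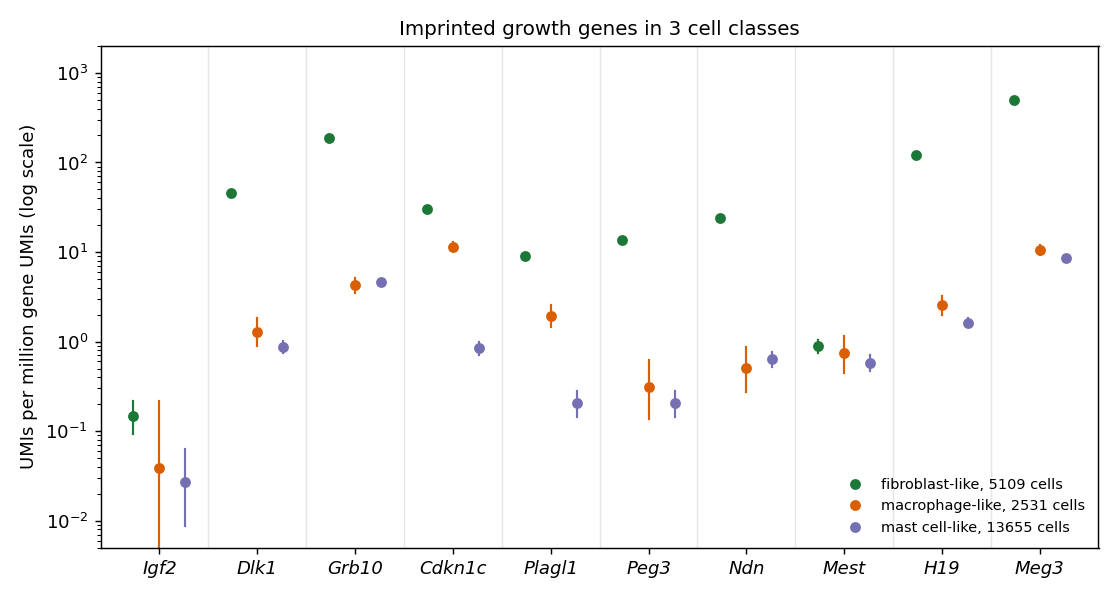
Summed UMIs of each member per 1000000 gene UMIs, on a log axis, in fibroblast-like, macrophage-like and mast cell-like cells; points are the level of the class, bars the exact Poisson 95% interval, and the lower end of the Igf2 bar of macrophage-like cells runs below the axis. The fibroblast-like level stands above both others for the 8 members called, but only 2.64-fold for Cdkn1c and 4.58-fold for Plagl1 over macrophage-like cells. Cdkn1c keeps 11.4 in macrophage-like cells, and Mest lies between 0.580 and 0.891 in all 3 classes.

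Igf2, the fetal growth factor that signals through the insulin and IGF1 receptors, was nearly absent. It had 24 UMIs in 15 of the 5109 fibroblast-like cells (0.146 CPM, 0.0938 to 0.218), 7 of them in 1 cell, 1 UMI in macrophage-like cells and 5 in mast cell-like cells. In thinned cells it was seen in 4 fibroblast-like cells of 4921. Its neighbour H19, a non-coding RNA read from the other parental copy of the same domain, was at 122 CPM (120 to 124) in the same cells. Levels of Igf2 this low show only that few molecules were captured at this depth.

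Dlk1 is a membrane protein related to Notch ligands, released as a soluble form that holds back fat cell formation. It stood at 46.0 CPM (44.96 to 47.0) in fibroblast-like cells, 1.29 (0.888 to 1.81) in macrophage-like and 0.872 (0.743 to 1.02) in mast cell-like cells. To compare detection, each cell was thinned to 5500 UMIs, which left out 188 shallower fibroblast-like, 553 macrophage-like and 985 mast cell-like cells. A Dlk1 UMI was then present in 8.01% of fibroblast-like cells (7.26 to 8.80), 0.961% of the macrophage-like cells and 0.497% of the mast cell-like ones. Without thinning, 16.7% of fibroblast-like cells had one. Dlk1 was therefore seen in a minority of fibroblast-like cells and was rare elsewhere.

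Grb10, an adaptor protein that binds and restrains the insulin and IGF1 receptors, was at 187 CPM (185 to 189) in fibroblast-like cells, 4.26 (3.50 to 5.14) in macrophage-like and 4.67 (4.37 to 5.00) in mast cell-like cells. It was present in 56.1% of thinned fibroblast-like cells and in 2.58% and 2.50% of the other classes. Cdkn1c, which encodes the cyclin-dependent kinase inhibitor p57, was also found in macrophage-like cells. Its level was 30.1 CPM (29.3 to 31.002) in fibroblast-like and 0.840 (0.713 to 0.983) in mast cell-like cells. In macrophage-like cells it was 11.4 (10.1 to 12.8), a ratio of fibroblast-like over macrophage-like of 2.64 (2.35 to 2.98). Its 292 UMIs in macrophage-like cells were spread over 254 cells with at most 3 in any cell.

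Plagl1 and Peg3 are zinc finger proteins, the first a transcription factor that can act on other imprinted genes. Plagl1 was at 8.95 CPM (8.50 to 9.42) in fibroblast-like, 1.95 in macrophage-like and 0.206 in mast cell-like cells. The 50 Plagl1 UMIs of macrophage-like cells came from 26 cells, with 7 in the highest, so a few cells held most of them. Peg3 was at 13.6 CPM (13.1 to 14.2) in fibroblast-like cells and at 0.313 and 0.206 in macrophage-like and mast cell-like cells. Ndn, a MAGE family protein that binds E2F factors, was at 24.2 CPM (23.4 to 25.0) against 0.508 and 0.634. Mest was at 0.891 CPM (0.752 to 1.05), 0.742 (0.447 to 1.16) and 0.580 (0.475 to 0.700), intervals that overlap for fibroblast-like and macrophage-like cells.

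H19 and Meg3, the long non-coding RNAs, had 122 and 492 CPM in fibroblast-like cells. H19 was at 2.54 CPM in macrophage-like and 1.62 in mast cell-like cells, ratios of 48.0 (37.6 to 62.2) and 75.2 (67.1 to 84.6). Meg3 was at 10.5 and 8.56 CPM, ratios of 46.9 (41.6 to 53.0) and 57.5 (54.8 to 60.5). In thinned cells a Meg3 UMI was present in 64.3%, 5.66% and 4.87% of the 3 classes in the order fibroblast-like, macrophage-like, mast cell-like, and an H19 UMI in 21.2%, 1.62% and 1.00%.

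The low levels outside fibroblast-like cells were set beside those of the 6 fibroblast markers in the same cells, since free RNA in droplets carries transcripts between cells. In mast cell-like cells the markers stood at 0.0140 to 0.0263 of their fibroblast-like level, and in macrophage-like cells at 0.0190 to 0.0392. Dlk1, Meg3, Grb10, Peg3 and Ndn lay inside both ranges, and their UMIs outside fibroblast-like cells are not read as expression. Their source was not tested. H19 lay inside the macrophage-like range and, at 0.0133, just below the mast cell-like one. Plagl1 lay inside the mast cell-like range (0.0230) but above the macrophage-like one, at 0.218 (0.161 to 0.289). Cdkn1c was far above it in macrophage-like cells, at 0.378 (0.335 to 0.426), and near the edge in mast cell-like cells, at 0.0278 (0.0236 to 0.0327). Mest was above both ranges, at 0.651 and 0.833.

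**Figure D2:**
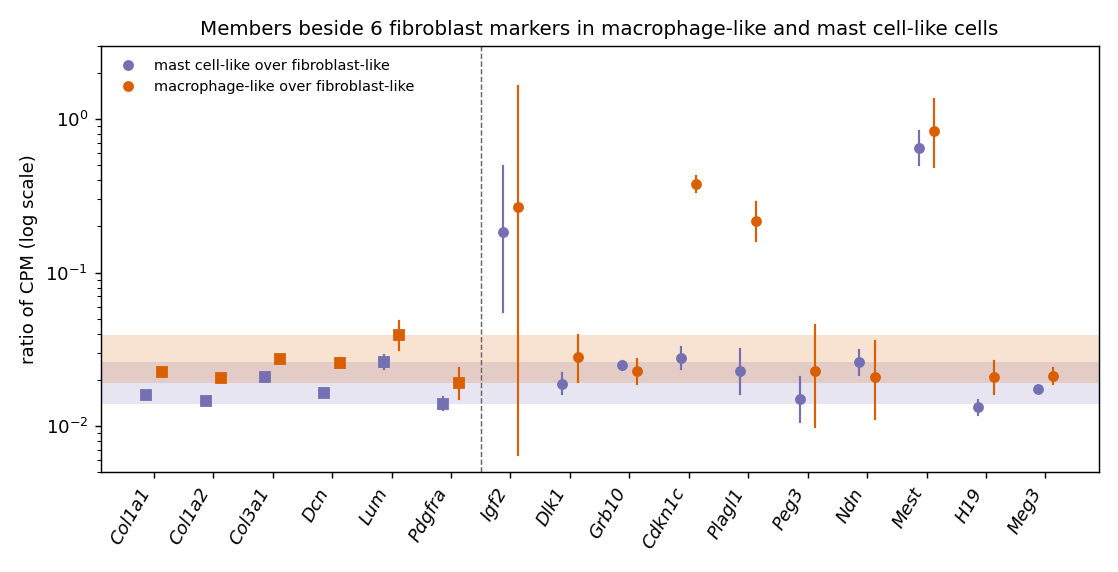
Level in mast cell-like and macrophage-like cells as a ratio to the fibroblast-like level, on a log axis, for 6 fibroblast markers (squares, left of the dashed line) and the 10 members (circles); bars are exact 95% intervals for counting error, and shaded bands span the markers. Cdkn1c and Plagl1 in macrophage-like cells and Mest and Igf2 in both classes lie above the bands, Igf2 on 1 and 5 UMIs, and Cdkn1c in mast cell-like cells sits just above its band (0.0278 against 0.0263).

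Among the 54 other imprinted genes of the list found in the matrix, 24 of the 45 counted were 2-fold or more higher in fibroblast-like than in mast cell-like cells and 4 lower, where 33.3% of all genes were higher and 16.8% lower. Their median ratio was 2.08, against 43.5 for the members. In the same comparison the 6 fibroblast markers, which named the cells, had a median of 61.5. The 21 counted genes of the insulin-like growth factor pathway had a median of 24.2. The members were chosen with earlier results of these data known, so this contrast does not test growth genes against other imprinted genes. Over macrophage-like cells 20 of 45 were higher and 5 lower, beside 29.1% and 17.5% of all genes. The chromosome 12 domain of Dlk1 and Meg3 also holds the non-coding RNAs Rian and Mirg and the thyroid hormone deiodinase gene Dio3. In fibroblast-like cells Rian was at 93.5 CPM and Dio3 at 14.1, against 1.41 and 0.200 in mast cell-like cells. Airn, the non-coding RNA that overlaps the Igf2 receptor gene, was at 235 CPM against 3.04. Gatm, an enzyme of creatine synthesis, was the reverse, at 76.3 CPM in macrophage-like cells and 1.13 in fibroblast-like ones. Decorin (Dcn), at 1330 against 22.0 CPM, is on this list and is also one of the fibroblast markers that named the cells.

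The levels of single fibroblast-like cells were far from even for some members. In thinned cells the variance of H19 UMIs was 12.7 times the mean, that of Dlk1 5.93 times, that of Meg3 5.15 times and that of Cdkn1c 3.33 times. The median over 12800 genes with a mean of 0.01 UMIs or more was 1.06 and the 90th percentile 1.51. Grb10 stood at 1.92, above that percentile, and Ndn at 1.08, close to what counting alone gives. The fibroblast marker Col1a1 stood at 13.7 and C7 at 9.07. The 12800 genes were not matched to the members by level, and Meg3, Grb10 and H19 had means of 2.57, 1.05 and 0.889 UMIs. Whether the members are more uneven than genes of like level was not tested. The highest 10% of cells held 84.0% of all H19 UMIs, 41.7% of those of Meg3 and 39.9% of those of Grb10. Dlk1 had 5 or more UMIs in 70 thinned cells and H19 in 273, out of 4921 cells. Dlk1 thus came from few cells with many molecules, and Ndn from cells with at most 3 UMIs each.

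**Figure D3:**
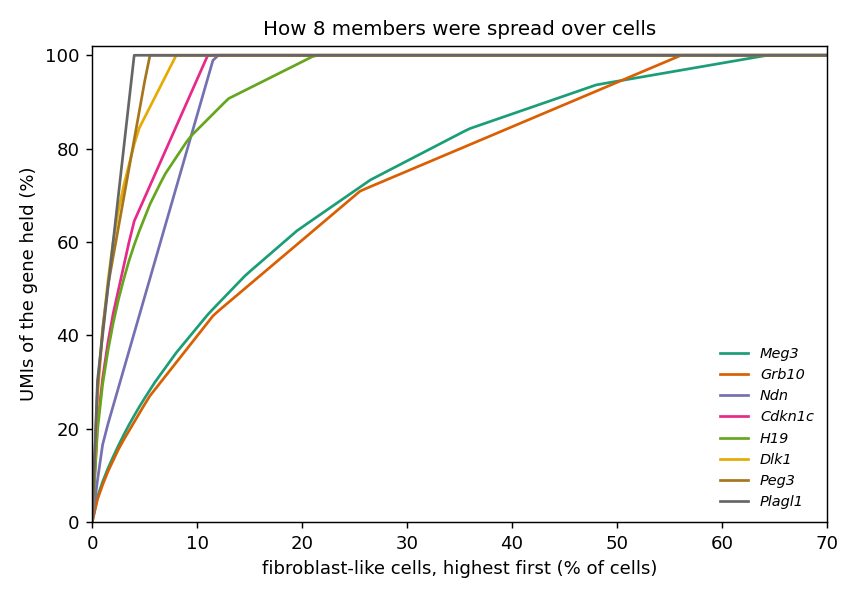
Share of a member's UMIs (y axis, %) held by the fibroblast-like cells with the most of them (x axis, % of the 4921 cells thinned to 5500 UMIs), 1 line for each of 8 members. Lines that reach the top at once belong to genes seen in few cells, in part because their level is low; Meg3 and Grb10 rise slowly to their shares of cells with a UMI, 64.3% and 56.1%.

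Pairs of members were read together by how many thinned cells held both, relative to the number that the product of their shares gives. Dlk1 and Peg3 shared 60 cells where 21.5 follow from the shares, a ratio of 2.80 (2.13 to 3.60). Peg3 and Plagl1 stood at 2.52 (1.66 to 3.66), Dlk1 and Plagl1 at 2.22 (1.55 to 3.09) and H19 and Cdkn1c at 2.03 (1.78 to 2.31). The chromosome 12 neighbours Dlk1 and Meg3 stood at 1.38 (1.24 to 1.53), where the share of Meg3 allows at most 1.55. Of the cells with Dlk1 88.8% had Meg3, against 62.2% of the other cells. Meg3 and Grb10 stood at 1.00 (0.959 to 1.05), and no pair of the 8 members seen in at least 4% of cells lay below 1. Other pairs of genes were not read this way, so whether ratios above 1 are particular to the members was not tested. Cells share the library and their colonies, so the intervals describe these cells only.

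**Figure D4:**
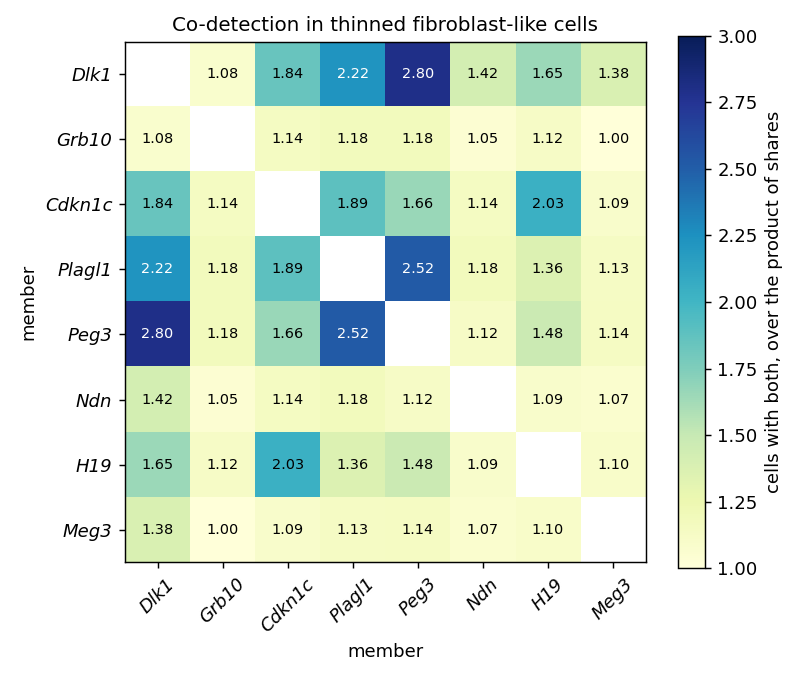
Co-detection of 8 members in 4921 fibroblast-like cells thinned to 5500 UMIs: each square sets the cells that held both genes against the product of their shares, with colour from 1 to 3. The darkest squares join Dlk1, Peg3 and Plagl1, and the row of Grb10 stays between 1.00 and 1.18.

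Likeness was measured as the Pearson correlation of log counts per 10000 over the 4921 thinned cells, for the 3 members seen in at least 20% of them and 6089 genes seen in at least 10%. Rian, which lies downstream of Meg3 on chromosome 12, was the gene most like Meg3, with r = 0.43. C3, the central complement component, was most like H19, with r = 0.30. No gene reached 0.3 for Grb10. These points share 1 library, and the correlations are descriptions.

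The fibroblast-like cells were then split by UMIs in thinned cells. With 2 or more UMIs of 1 of the 3 genes and fewer than 2 of each other, there were 185 C7 cells, 75 Crabp1 cells and 34 Adipoq cells, and 4627 cells had none of them at that level. No cell had 2 or more UMIs of more than 1 of the genes. The cut is close to many cells: 57 of the C7, 26 of the Crabp1 and 12 of the Adipoq cells had exactly 2 UMIs, and 169, 59 and 26 cells had 1. These groups are ranges of a count, not cell types. Median depth was 28936 UMIs in C7, 38367 in Crabp1 and 25330 in Adipoq cells. Fibroblast markers summed to 12163 CPM in C7 cells, 2393 in Crabp1 cells and 6300.1 in Adipoq cells, and mast cell markers to 9034, 7883 and 8774. Macrophage markers summed to 104, 101 and 308 CPM. Of 12 adipocyte genes, 7 were at 50 CPM or more in Adipoq cells, which summed to 8028 CPM over the list, against 575 in C7 and 342 in Crabp1 cells. By tag, 60% of Crabp1 cells carried Matrigel alone and 40% more than 1 tag, while 27.0% of C7 cells carried none. Cycling cells (UMIs of 3 or more of 6 proliferation genes) were 0.541% of C7, 17.3% of Crabp1 and 2.94% of Adipoq cells. The part of markers, tags, depth and cycling in the differences below was not tested.

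**Figure D5:**
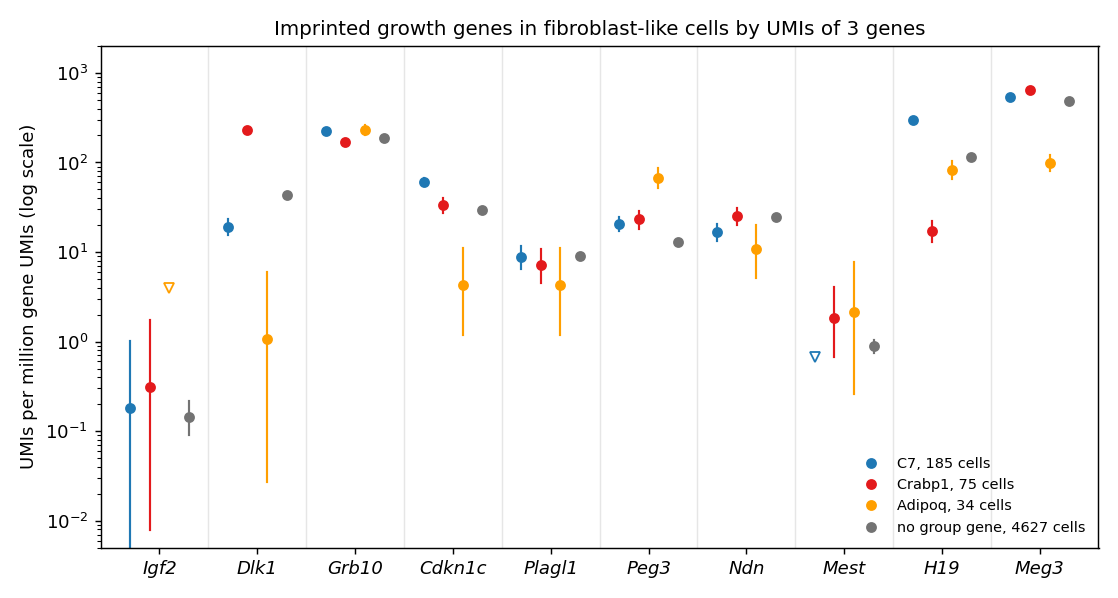
Summed UMIs of each member per 1000000 gene UMIs, on a log axis, in fibroblast-like cells with C7, Crabp1 or Adipoq UMIs and in those with none of them at 2 UMIs; bars are exact Poisson 95% intervals, open triangles mark the upper limit where a group had 0 UMIs, and the lower end of the Igf2 bar of C7 cells runs below the axis. Dlk1 is highest in Crabp1 cells and H19 in C7 cells, Meg3 is low in Adipoq cells, and Grb10 stays between 169 and 232.

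Between Crabp1 and C7 cells, Dlk1 and H19 moved in opposite directions. Dlk1 was at 228 CPM (212 to 245) in Crabp1 cells and 19.2 (15.7 to 23.2) in C7 cells, 11.9-fold higher (9.69 to 14.7). It was present in 52 of 75 Crabp1 cells and 23 of 185 C7 cells before thinning. H19 was at 17.0 CPM (12.8 to 22.1) against 296 (282 to 311), 17.4-fold lower (13.3 to 23.2), with UMIs in 17 of 75 and 107 of 185 cells. These were the 2 called of 8 members counted, where 20.9% of 11683 genes were 2-fold or more apart, 8.34% higher and 12.5% lower. One Crabp1 cell held 21 of the 55 H19 UMIs, and without it the level was 10.6 CPM. By Crabp1 UMIs, Dlk1 was at 38.5 CPM in the 4787 fibroblast-like cells with none and 253 in the 59 with 1. Dlk1 was at 359 in the 26 cells with 2 and 164 in the 49 with 3 or more, so it did not rise steadily.

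The other members differed less between Crabp1 and C7 cells. Cdkn1c was at 33.4 CPM against 60.3, a ratio of 0.554 (0.442 to 0.691), but 45 of its 108 UMIs in Crabp1 cells came from 1 cell, without which it was at 19.7. Grb10 was at 169 against 226 CPM (ratio 0.747, 0.674 to 0.827) and Ndn at 25.1 against 16.6 (ratio 1.51, 1.10 to 2.06). Meg3, at 636 against 543 CPM, had a ratio of 1.17 (1.11 to 1.24), so the neighbours Dlk1 and Meg3 did not differ by like amounts. The intervals of Peg3 (ratio 1.12, 0.828 to 1.52) and Plagl1 (ratio 0.811, 0.471 to 1.36) spanned 1. One Crabp1 cell held 26 of the 75 Peg3 UMIs, and without it Peg3 was at 15.3 CPM, below the 20.6 of C7 cells. Mest had 6 UMIs in Crabp1 cells (1.86 CPM) and 0 in C7 cells, where 3 UMIs would be 0.548 CPM. Igf2 had 1 UMI in each group.

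Within 1 tag, and when cells were split by Xist and Y-linked UMIs, Dlk1 was again higher and H19 lower in Crabp1 cells. The part of tag and of these sex-linked genes in the differences was not tested. Among cells with the Matrigel tag alone, Dlk1 was at 276 CPM in 45 Crabp1 cells and 24.8 in 75 C7 cells, and H19 at 28.6 and 432. There Cdkn1c (16.4 against 77.0) and Plagl1 (3.51 against 11.1) were also past 2-fold, which made 4 members, but 17 of the 25 Plagl1 UMIs of those C7 cells lay in 1 cell, without which they were at 3.61 CPM. With Xist and no Y-linked UMIs, Dlk1 was at 169 and 18.4 CPM and H19 at 12.0 and 341. With Y-linked UMIs and no Xist, Dlk1 was at 543 CPM in 7 Crabp1 cells and 20.7 in 35 C7 cells, and H19 at 13.01 and 330. One C7 cell held 15 of these 22 Dlk1 UMIs. Among the Crabp1 cells, Dlk1 was at 268 CPM in the 62 that were not cycling and 63.4 in the 13 that were.

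When sub-clusters, made without the group genes or the members, replaced UMIs of the group genes, Dlk1 kept its direction and H19 lost most of its difference. The sub-cluster with the most Crabp1 held 946 cells and that with the most C7 held 3498. Dlk1 was at 137 CPM in the first and 15.2 in the second, and H19 at 69.2 and 128. Cdkn1c changed direction, at 55.0 against 21.0 CPM. The 946 cells were 18.5% of fibroblast-like cells and held 24.9% of their gene UMIs. They held 74.1% of the Dlk1 UMIs, 45.4% of those of Cdkn1c, 37.2% of Peg3, 35.9% of Plagl1, 34.8% of Ndn and 31.9% of Meg3. They also held 72 of the 146 Mest UMIs (49.3%) and 19 of the 24 Igf2 UMIs. H19 had 14.1% of its UMIs there, and Grb10 26.3%, close to the share of all UMIs.

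Between Adipoq and C7 cells, 6 of 8 members counted were 2-fold or more apart, 1 higher and 5 lower, where 18.1% of 10856 genes were, 4.89% higher and 13.2% lower. Peg3 was at 67.9 CPM (52.1 to 86.8) in Adipoq cells and 20.6 (17.0 to 24.8) in C7 cells, 3.29-fold higher (2.38 to 4.51). Its 63 UMIs came from 15 of 34 cells with at most 13 in 1. Meg3 was at 99.1 CPM against 543, 5.48-fold lower (4.45 to 6.82). Only 7 of the 34 Adipoq cells had a Meg3 UMI, against 161 of 185 C7 cells, and 1 of the 7 held 59 of the 92 UMIs, without which the level was 36.6 CPM.

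Dlk1 had 1 UMI in the Adipoq cells and 105 in the C7 cells, 1.08 against 19.2 CPM, a ratio of 0.0562 (0.00141 to 0.320). Cdkn1c had 4 UMIs and 330, 4.31 against 60.3 CPM, 14.0-fold lower (5.41 to 51.6). H19 was at 82.9 CPM against 296, 3.57-fold lower (2.84 to 4.55), but 50 of its 77 UMIs lay in 1 cell, without which it was at 30.03. Plagl1, with 4 UMIs against 48, was called at a ratio of 0.492, though the interval (0.129 to 1.34) spanned 1. Of the 48 UMIs 17 lay in 1 C7 cell, without which C7 cells were at 5.71 CPM against 4.31, under 2-fold apart. Grb10 was at 232 against 226 CPM, with an interval of the ratio from 0.884 to 1.19. Ndn was at 10.8 against 16.6 CPM (ratio 0.648, 0.301 to 1.25), and at 6.95 without the cell that held 4 of its 10 UMIs.

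Adipoq cells with many Adipoq UMIs had almost no Meg3. In the 22 cells with 3 or more Adipoq UMIs, Meg3 had 2 UMIs (3.60 CPM), against 90 UMIs and 242 CPM in the 12 cells with 2, 235 in the 26 cells with 1 and 495 in the 4861 cells with none. The cell with 59 Meg3 UMIs was among the 12, which stood at 89.96 CPM without it. Among the 26, 1 cell held 71 of the 166 Meg3 UMIs, and without it they stood at 146 CPM. Peg3 was at 108, 8.05 (3 UMIs), 32.5 and 13.3 CPM in the same order. It was at 13.8 in the 26 cells without the cell that held 14 of their 23 Peg3 UMIs. Dlk1 had 0 UMIs in the 22 cells, and Grb10 stayed at 250 CPM.

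Between Adipoq and Crabp1 cells, 6 of 7 members counted were 2-fold or more apart, where 24.3% of 9669 genes were, 9.73% higher and 14.6% lower. The Adipoq cells are those above, so these values are not independent of that comparison. Dlk1 (1.08 against 228 CPM) had a ratio of 0.00472 (0.000119 to 0.0264) on 1 UMI against 738. Meg3 was 6.42-fold lower (5.21 to 7.999), Cdkn1c 7.75-fold lower (2.94 to 29.0) and Ndn 2.33-fold lower (1.202 to 5.03). H19 was 4.88-fold higher (3.41 to 7.02) and Peg3 2.93-fold higher (2.06 to 4.15). Grb10, at 232 against 169 CPM, was not called. H19 rested on single cells on both sides: at 30.03 against 10.6 CPM without the highest cell of each group, and at 29.0 against 28.6 among cells with the Matrigel tag alone.

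The sub-cluster with the most Adipoq held 570 cells, most of them without 2 Adipoq UMIs, and gave another picture of some members. It held 11.2% of fibroblast-like cells but 4.20% of their gene UMIs, so its cells were shallow. The C7 sub-cluster held 68.5% and 70.5%. The part of this depth in the values below was not tested. Over the 3498 cells of the C7 sub-cluster, Dlk1 was 1.88-fold, H19 2.67-fold and Cdkn1c 1.84-fold higher, the reverse of the comparison by UMIs. Meg3 remained lower, at 127 against 462 CPM. Within the sub-cluster, the 19 Adipoq cells had H19 at 26.3 CPM, Meg3 at 10.96 and Peg3 at 87.7, and the 406 cells with none of the 3 genes at 2 UMIs had 343, 133 and 11.5. Dlk1 was at 0 UMIs in the first and 31.5 CPM in the second. Of the 12 H19 UMIs in the 19 cells 10 lay in 1 cell.

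Members of the same pathways were read in the same groups. Of 22 genes of the insulin-like growth factor pathway, 20 were counted between Crabp1 and C7 cells, 1 higher and 9 lower, where 8.34% of all genes counted were higher and 12.5% lower. Their median ratio was 0.504, against 0.955 for all genes. Igf1, the growth factor of postnatal life, was at 6.19 CPM against 166. The binding proteins Igfbp4 and Igfbp3 were at 25.7 against 409 and 5.26 against 63.5. The protease gene Pappa2 was higher, at 13.6 against 1.83 CPM. In Adipoq cells Igf1 was at 304 CPM and Igfbp3 at 269. Igf1 was also at 257 CPM in macrophage-like cells, while Igf2 was near 0 in each of these groups. The Igf2 receptor gene Igf2r, itself imprinted, was at 107 CPM in fibroblast-like cells and 6.76 in macrophage-like ones.

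Of 20 Notch pathway genes, 9 were counted between Crabp1 and C7 cells, 1 higher and 3 lower, beside the same 8.34% and 12.5% of all genes. The ligand Jag1 was at 3.71 CPM against 30.5, and the target Hes1 at 135 against 438, while Rbpj, the transcription factor of the pathway, was at 398 against 122. Of 15 cyclin-dependent kinases, cyclins and inhibitors, 5 were higher and 1 lower, again beside 8.34% and 12.5%. Cyclin D1 (Ccnd1) was at 459 CPM against 68.5, and the inhibitors Cdkn2b and Cdkn2a at 92.5 against 21.7 and 207 against 57.2, the opposite direction to Cdkn1c in the same cells. Cdkn1c was not called between Crabp1 and C7 cells (ratio 0.554) and changed direction with sub-clusters. In Adipoq cells Cdkn2b (5.39 CPM) and Cdkn2a (37.7 CPM) were lower than in Crabp1 cells, as was Cdkn1c, on 4 UMIs.

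Of the other imprinted genes, Rian had the same order over the groups as Dlk1 and Meg3, at 213 CPM in Crabp1, 67.0 in C7 and 16.2 in Adipoq cells. Between Crabp1 and C7 cells 3 of 32 counted were higher and 5 lower, shares near the 8.34% and 12.5% of all genes. Mirg, from the same domain as Rian, was at 15.2 against 6.21 CPM. Dcn was at 315 CPM in Crabp1 cells against 2515. Between Adipoq and C7 cells 0 of 30 were higher and 6 lower, where 4.89% and 13.2% of all genes were. Among the 6 were Airn (128 against 330 CPM) and Sgce, the sarcoglycan epsilon gene (22.6 against 51.5).

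Growth control was also read against the cell cycle. Of the 4921 thinned fibroblast-like cells, 310 were cycling and 4611 were not. H19 was at 27.2 CPM in cycling and 129 in other cells, 4.74-fold lower (4.28 to 5.25), the 1 member called of 9 counted, where 14.9% of 17646 genes were, 7.12% higher and 7.82% lower. Meg3 was at 288 against 512 CPM (ratio 0.563, 0.545 to 0.581), Peg3 at 8.32 against 14.2 (0.588), Cdkn1c at 19.5 against 31.1 (0.628, 0.554 to 0.708) and Dlk1 at 32.8 against 47.2 (0.694). Plagl1 and Ndn had ratios of 1.23 (1.04 to 1.46) and 1.203 (1.08 to 1.33). One cycling cell held 40 of the 154 Plagl1 UMIs, and without it Plagl1 was at 7.998 CPM, below the 8.75 of other cells. Grb10, at 184 against 187 CPM, had a ratio of 0.983 (0.944 to 1.02). Mest had 12 UMIs in cycling cells. Cycling cells had more UMIs (median 43442 against 31099), lower fibroblast markers and more Crabp1 (44.2 against 16.2 CPM) and less C7 (3.64 against 44.2). Among cells with none of the 3 group genes at 2 UMIs, H19 was at 28.4 CPM in cycling and 125 in other cells.

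Members also differed by tag, which the labels tie to no condition. Dlk1 was at 57.4 CPM in fibroblast-like cells with the Matrigel tag alone, 54.7 in those with more than 1 tag, 14.4 in those with none and 5.46 in the 313 with the Cafum tag alone. Grb10 had 205, 160, 198 and 130 CPM in the same order, and H19 131, 80.8, 184 and 64.2. Between cells with Xist alone and with Y-linked UMIs alone the members were closer: Dlk1 at 45.5 and 47.2, Meg3 at 530 and 442, H19 at 128 and 112 and Grb10 at 191 and 193 CPM.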

How the data were processed

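The authors deposited raw counts of UMIs per gene and cell barcode for 1 gene expression library, and the file headers name Cell Ranger 7.0.0. The submitters' processing notes also name STAR, R 4.1.3, Seurat 4.1.1 and mm10. The annotation, the counting of introns, the use of strand and filters are not given in the sources used here. The 3 tag features were kept out of gene totals, and the second sample, a library of tags alone, is not used here.

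Filters of 500 genes, 1000 UMIs and a mitochondrial share of 10% or less passed 33964 barcodes, and 4676 doublets called by Scrublet in scanpy 1.11.5 were removed. Leiden clusters (leidenalg 0.10.2, resolution 0.5, 2000 variable genes, 30 components, 15 neighbours) were made without 228 listed genes and named from marker lists: a marker passed at 50 CPM and 4 times its lowest level over clusters, and a name needed 3 markers and more than 50% of its list. A name was withheld where another list had more markers among the cluster's 10 leading genes. It was also withheld where 3 times the cluster's median UMIs was below the median of all kept cells and no leading gene was on its list. Rebuilt names may differ from the authors'. A tag was called at 2 times its background (Cafum at 1.4 times). Ratios are of CPM of summed UMIs (scipy 1.17.1). The ratio and its interval were tested on simulated data.

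Sums over the marker lists in fibroblast-like cells, in CPM, were 7943 for mast cell, 104.6 macrophage, 12022 fibroblast, 24.7 endothelial, 40.2 smooth muscle and pericyte, 15.9 mesothelial, 7.35 Schwann cell, 0.744 T cell, 0.598 B cell, 4.00 neutrophil, 1.90 dendritic cell, 43.1 myeloid progenitor, 5.51 erythroid, 58.5 megakaryocyte and 0.262 skeletal muscle.

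All 10 members are named in every class. Of other lists, up to 4 genes past 2-fold and at 10 CPM in 1 class are named per comparison, with the largest ratios; Igf2r, Igf1 in macrophages and Mirg's and Dcn's further values were added after values were seen. The members and lists were chosen with earlier results of these data known.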

Additional observations from a re-analysis of the deposited data

How the results depend on the processing

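No paired analysis was possible because there was 1 library and no test. Of 86 counts of members recomputed under other settings, 78 stayed within 1.5 times. Between Crabp1 and C7 cells the count of 2 became 4 in cells with little mast cell RNA, at 1.5-fold, in cells with 1 tag alone and with the Matrigel tag alone. With sub-clusters it was 3, all higher. Between Adipoq and Crabp1 cells the count of 6 became 2 with thinned UMIs and in cells with Y-linked UMIs alone, where 3 members were counted. Between cycling and other cells the count of 1 became 3 with thinned UMIs and 4 at 1.5-fold. Of 585 values of single members 424 stayed within their interval or call, 157 moved and 4 reversed, all with sub-clusters in place of UMIs: Dlk1 at 1.88, H19 at 2.67 and Cdkn1c at 1.84 for Adipoq over C7, and Peg3 at 0.770 for Adipoq over Crabp1. Only members called in the comparison itself were counted as reversed. Cdkn1c, not called between Crabp1 and C7 cells (0.554), went to 2.61 with sub-clusters and is among those that moved. The cause was not tested. Settings by sub-cluster, Xist and Y-linked genes were added after seeing the data. In the 34 Adipoq cells 3 UMIs are 3.23 CPM, which limits every statement on low members there.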

Other observations

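Of the clusters outside the comparisons, some small ones also held members. In 35 Schwann cell-like cells, the glia of peripheral nerves, Mest was at 23.4 CPM against 0.891 in fibroblast-like cells, though 13 of its 23 UMIs lay in 1 cell, without which it was at 10.7. There Grb10 was at 155, Meg3 at 37.7, Ndn at 15.3 and Peg3 at 14.3, while Dlk1, Igf2 and Cdkn1c had 0 UMIs. An unnamed cluster of 34 cells, led by genes such as Hmcn1, Slpi and the mesothelial marker Lrrn4, had 5 Igf2 UMIs (4.38 CPM), Mest at 8.77, Grb10 at 169 and Meg3 at 119 CPM. In 1 cell lay 8 of its 10 Mest UMIs (1.81 CPM without it), and 1 cell held 3 of the 5 Igf2 UMIs. All 34 of its cells with enough depth had Xist and no Y-linked UMIs. In 51 T cell-like cells 6 of the members had 0 UMIs, and the other 4 had 1 UMI (2.07 CPM) each. Mast cell markers summed to 33232 CPM in these cells, against 581 for T cell and 347 for B cell markers.

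A sub-cluster of 95 fibroblast-like cells had Meg3 at 1003 CPM and Grb10 at 338, with H19 at 24.4. There Dlk1 and Cdkn1c were at 2.71 each, on 2 UMIs each, Xist at 2102 and Col1a1 at 1292. In the same order, all fibroblast-like cells had 492, 187, 122, 46.0, 30.1, 708 and 2842. The 95 cells were shallow, with a median of 5553 UMIs against 31009, and held 0.451% of the gene UMIs of the class. The part of depth in these levels was not tested.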
